A study of Homo sapiens with 8 samples.

Results

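The genes described here encode the contractile apparatus, the calcium store, the acetylcholine receptor and the specialised membrane and metabolism of skeletal muscle. A gene belonged to the set where a probe set carried exactly its symbol in the array annotation, and the troponins were left out. Of 45 listed genes, 44 were measured, through 61 probe sets, among 11963 genes on the array. The slow-type tropomyosin TPM3 had no probe set of its own symbol alone and has no value here.

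The samples were cultures of SJRH30, a human rhabdomyosarcoma cell line grown in serum-containing medium, so all groups come from 1 tumour. Cells were kept at 1% oxygen for 6 h, 12 h or 24 h, and the baseline at 0 h was taken before hypoxia began. Each time had 2 arrays, 8 in all, which the labels call biological replicates. No separate cultures are stated, so p-values measure the spread between these arrays. The study asked how gene expression changed over time under low oxygen.

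Skeletal muscle contracts when myosin heads of the thick filament pull on actin of the thin filament, within sarcomeres bounded by Z-discs. Acetylcholine released by the nerve opens a receptor channel, the calcium store releases calcium, and a pump returns it. Rhabdomyosarcoma is a tumour of cells committed to the muscle lineage that express part of this programme without forming mature fibres, and the embryonic and perinatal myosins are forms of developing muscle.

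The labels give the cell type as muscle fibroblasts. Over 11 rhabdomyosarcoma markers, mean signals lay between the 50.2 and 97.3 percentile of all genes, with MYOD1 at the 97.3 percentile, FGFR4 at 95.2 and MYOG at 85.3. Fibroblast markers were spread from the 4.23 percentile for POSTN to the 92.1 percentile for COL3A1, with FBN1 at 83.8, DCN at 24 and FAP at 13.6. Immune markers lay at the 34 percentile or below. These percentiles rank probe set signals, which also depend on the probes, so they compare no transcript amounts between genes and do not settle the labelled cell type. Hypoxia marker genes rose in all 8 measured cases at each time, by a median of 1.95, 2.04 and 2.12 on the log2 scale at 6, 12 and 24 h. Every array had a median log2 value between 6.69 and 6.73. The spread of genes was smaller on the 12 h arrays (interquartile range 3.77 to 3.83) than on the others (3.91 to 3.97). The mean of 24 poly-A control probe sets exceeded its 0 h value by 0.47 after 6 h of hypoxia, by 0.43 after 12 h and by 0.65 after 24 h. The part of this spread and of these controls in the muscle gene results was not tested. Values are log2 levels, where a difference of 1 is a doubling. No normoxic cells of matched age were analysed here, so hours in hypoxia cannot be told apart from hours in culture. In a bulk culture, fewer cells of a type cannot be told apart from less RNA per cell.

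The muscle genes moved mostly upward, and mostly late. Calls came from limma with Benjamini-Hochberg adjustment over all genes, where an adjusted p under 0.05 is a call. At 6 h, 3 of 44 members rose, against 2.32% of all genes, and 0 fell, against 1.22% of all genes. Before adjustment, 7 of 44 members and 2300 of 11963 genes had a limma p under 0.05 at 6 h. That share was lower among the members than among all genes. At 12 h, 8 rose, a share of 18.2% against 7.13% of all genes, and 3 fell, a share of 6.82% against 11.3%. Leaving out either 0 h array took the 12 h count in both directions to 4. At 24 h, 14 rose, a share of 31.8% against 8.59%, and 3 fell, a share of 6.82% against 9.15%. With any single array left out, 0 to 2 members fell at 24 h. These comparisons share the 0 h arrays. Both 24 h arrays lay above both 0 h arrays for 26 of 44 members, against 26.6% of all genes. They lay below them for 8 of 44 members, against 32.3% of all genes. The median change at 24 h was 0.18 over the 44 members and -0.01 over all genes, and 8 members (18.2%) exceeded 0.5 against 2.71% of all genes. A test over the 3 hypoxic times together called 16 members (36.4%) against 16.2% of all genes. This test did not call MYH3, ACTC1 or RYR1 (limma F-test adjusted p = 0.0751, 0.0866 and 0.107), which were called at 24 h. Without 0 h replicate 1 it called 9 members against 3.32% of all genes, and without 0 h replicate 2 it called 9 against 3.13%. Tested probe set by probe set at 24 h, 21 of 61 were called, a share of 34.4% against 14.7% of all probe sets.

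**Figure D1:**
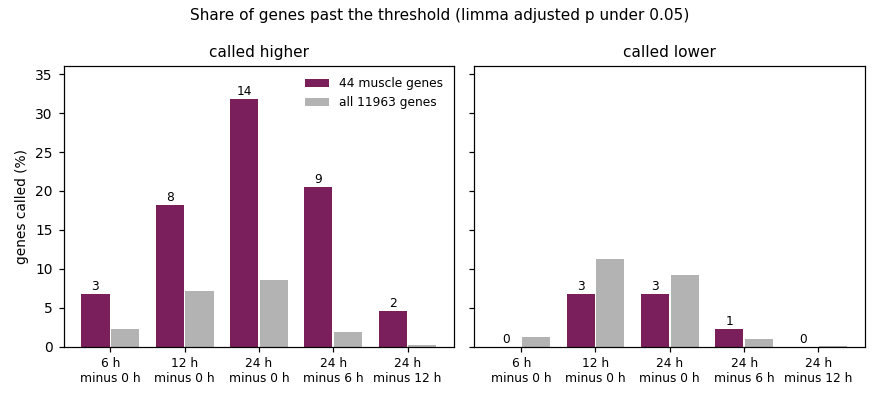
Share of genes called higher (left) and lower (right) by limma in 5 comparisons between times, in percent of the 44 muscle genes and of all 11963 genes, with the number of muscle genes called above each bar. At 24 h minus 0 h, 14 muscle genes were called higher and 3 lower.

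By the times at which they were called, the 14 risen genes formed 3 groups. The groups rest on the threshold at each time, and no test compared them. NEB, CKB and MB were called at 6, 12 and 24 h. MYL4, TTN, CSRP3, ENO3 and PYGM were called at 12 and 24 h, and MYH3, MYH8, MYL11, MYBPC2, CASQ2 and CKM at 24 h alone. In the opposite direction, MYL1 and ACTA1 fell at 12 h alone, ACTC1 and RYR1 at 24 h alone, and ATP2A1 at both. The other 25 measured genes passed no comparison with 0 h, and their 24 h changes lay between -0.29 and 0.33. For 10 members (22.7%, against 8.02% of all genes), the mean level was higher at each later time than at the one before, namely MYH8, MYL4, TTN, CSRP3, CASQ2, CHRND, CKB, MB, ENO3 and PYGM.

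Upstream sequence is shown for the 6 of the 14 risen genes that had exactly 1 tabulated start, because these genes moved the same way. It is the 250 bases before the start in RefSeq, assembly GRCh38.p14, all on the minus strand: MYH8 at chr17:10421951-10422200, TTN at chr2:178807424-178807673, CASQ2 at chr1:115768715-115768964, NEB at chr2:151734477-151734726, CKM at chr19:45322876-45323125 and CKB at chr14:103522831-103523080. Capitals mark the letters CANNTG (the E-box, the general form bound by the MYOD family) and matches to the MEF2 site.
MYH8: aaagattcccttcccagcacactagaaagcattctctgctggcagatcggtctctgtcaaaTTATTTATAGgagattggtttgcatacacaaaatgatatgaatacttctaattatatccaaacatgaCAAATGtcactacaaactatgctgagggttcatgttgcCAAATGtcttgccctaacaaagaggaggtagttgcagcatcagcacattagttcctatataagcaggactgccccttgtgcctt
TTN: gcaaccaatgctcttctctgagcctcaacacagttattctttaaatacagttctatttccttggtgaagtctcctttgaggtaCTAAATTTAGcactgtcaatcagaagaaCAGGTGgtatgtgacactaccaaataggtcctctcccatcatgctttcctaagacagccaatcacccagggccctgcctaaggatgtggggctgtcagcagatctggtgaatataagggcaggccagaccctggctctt
CASQ2: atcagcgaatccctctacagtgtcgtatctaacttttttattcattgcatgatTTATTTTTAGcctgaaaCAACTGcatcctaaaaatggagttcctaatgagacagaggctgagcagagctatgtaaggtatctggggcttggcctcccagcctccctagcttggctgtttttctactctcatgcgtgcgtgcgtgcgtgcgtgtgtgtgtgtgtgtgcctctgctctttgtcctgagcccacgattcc
NEB: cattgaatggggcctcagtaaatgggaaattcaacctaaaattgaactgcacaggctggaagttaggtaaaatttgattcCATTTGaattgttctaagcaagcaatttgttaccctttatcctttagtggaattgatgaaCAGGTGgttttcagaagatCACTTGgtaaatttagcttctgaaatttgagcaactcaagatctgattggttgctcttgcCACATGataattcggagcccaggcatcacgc
CKM: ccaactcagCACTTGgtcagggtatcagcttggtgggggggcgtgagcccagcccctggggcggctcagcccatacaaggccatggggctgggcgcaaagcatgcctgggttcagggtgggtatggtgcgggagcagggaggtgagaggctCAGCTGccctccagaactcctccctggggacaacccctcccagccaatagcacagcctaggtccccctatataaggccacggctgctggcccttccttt
CKB: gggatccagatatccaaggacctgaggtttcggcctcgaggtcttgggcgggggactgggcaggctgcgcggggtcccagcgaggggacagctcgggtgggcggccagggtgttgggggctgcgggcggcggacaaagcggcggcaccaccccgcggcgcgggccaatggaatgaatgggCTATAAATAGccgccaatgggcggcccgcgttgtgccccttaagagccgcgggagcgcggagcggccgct
An E-box was found in MYH8 (2), NEB (4), TTN (1), CASQ2 (1) and CKM (2), and in none of the CKB stretch. MEF2 matches were found in MYH8, TTN, CASQ2 and CKB, 1 each. The core hypoxia-response letters ACGTG were found in none of the 6 windows. Both strands were searched; the palindrome CACGTG would count for both CANNTG and ACGTG, and TATAAA may lie within a MEF2 match. Over 42 starts of 32 members, 73.8% held an E-box, against 61.8% of 35116 tabulated starts. ACGTG was in 9.52% of members' starts against 18.5%, TATAAA in 23.8% against 10.7%, the MEF2 site in 16.7% against 2.8% and the CArG box in 11.9% against 1.16%. These counts describe letters in these windows only.

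Metabolic and oxygen-store genes showed the highest median change of the 9 role groups at 24 h, 0.62. Of its 6 members, 5 were called higher then, against 8.59% of all genes. MB, myoglobin, the oxygen-binding protein of muscle, read 7.79 and 7.81 at 0 h, 8.17 and 8.23 at 6 h, 8.52 and 8.56 at 12 h, and 9.24 and 9.48 at 24 h. Each later group lay wholly above the earlier one. MB averaged 9.36 ± 0.17 at 24 h and 7.80 ± 0.01 at 0 h (SD, n = 2 each), a rise of 1.56 ± 0.08 (SE; limma adjusted p = 2.78e-05), 2.94-fold. It had risen by 0.40 at 6 h (limma adjusted p = 0.0429) and by 0.74 at 12 h (limma adjusted p = 0.00148). PYGM, the muscle glycogen phosphorylase that frees glucose phosphate from glycogen, read 6.35 and 6.61 at 0 h, 6.72 and 6.73 at 6 h, 7.29 and 7.25 at 12 h, and 7.31 and 7.64 at 24 h. It rose by 0.79 ± 0.12 at 12 h (limma adjusted p = 0.00473) and by 1.00 ± 0.12 at 24 h (limma adjusted p = 0.00155), and no hypoxic array overlapped the 0 h arrays.

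ENO3, the muscle enolase of glycolysis, read 8.41 and 8.30 at 0 h, 8.62 and 8.57 at 6 h, 8.66 and 8.65 at 12 h, and 8.91 and 9.05 at 24 h. All hypoxic arrays were above both 0 h arrays, and the gene rose by 0.30 ± 0.07 at 12 h (limma adjusted p = 0.0213) and by 0.62 ± 0.07 at 24 h (limma adjusted p = 0.0011), 1.54-fold at 24 h. CKB, the brain-type creatine kinase that regenerates ATP from phosphocreatine, read 8.44 and 8.44 at 0 h, 8.74 and 8.82 at 6 h, 8.82 and 8.77 at 12 h, and 9.0 and 9.12 at 24 h. The 6 and 12 h arrays overlapped each other but not the 0 h arrays, with changes of 0.34 at 6 h (limma adjusted p = 0.03), 0.36 ± 0.06 at 12 h (limma adjusted p = 0.00859) and 0.62 ± 0.06 at 24 h (limma adjusted p = 0.00076). CKM, its muscle-type counterpart, read 6.64 and 6.61 at 0 h, 6.66 and 6.61 at 6 h, 6.69 and 6.41 at 12 h, and 7.0 and 7.0 at 24 h. Only the 24 h arrays stood apart, and CKM rose by 0.37 ± 0.09 at 24 h (limma adjusted p = 0.0255). Leaving out any 0 h or 24 h array ended the CKM call. PGAM2, the muscle phosphoglycerate mutase, differed by -0.03 at 24 h and its 24 h arrays overlapped the 0 h arrays. At 12 h, the ENO3 call was lost without any single 0 h or 12 h array and the CKB call without either 0 h array. The 6 h calls of MB, NEB and CKB were each lost when any 0 h or 6 h array was left out.

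**Figure D2:**
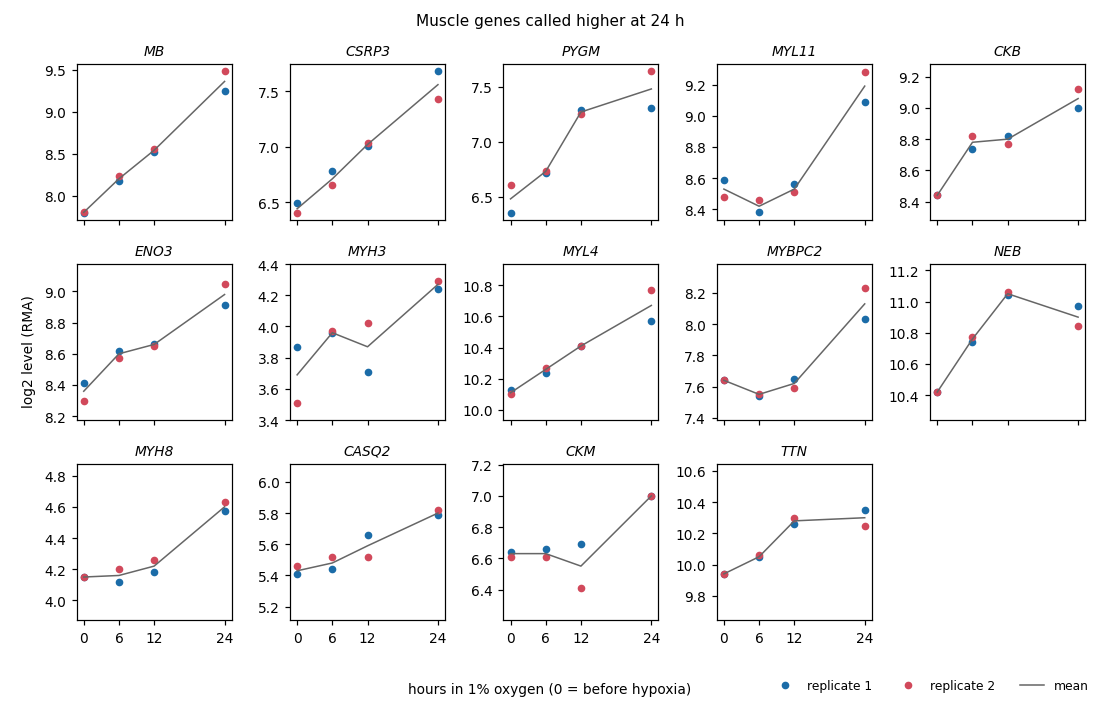
log2 level (RMA) of the 14 muscle genes called higher at 24 h, against hours in 1% oxygen, with each array as a point coloured by replicate and a line through the means of 2 arrays. MB and CSRP3 have the largest 24 h changes, 1.56 and 1.12.

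Among the thick filament myosins, 2 of 5 heavy chains and 2 of 4 light chains were called higher at 24 h, against 8.59% of all genes. None was called lower then, against 9.15%. The heavy chains, MYH1, MYH2, MYH3, MYH7 and MYH8, had low probe set signals, at or under the 11.2 percentile of all genes, and are close paralogs, so cross-hybridisation could mix them; this was not tested. MYH3, the embryonic form, read 3.87 and 3.51 at 0 h, 3.96 and 3.97 at 6 h, 3.71 and 4.02 at 12 h, and 4.24 and 4.29 at 24 h. The 24 h arrays were above all others, and MYH3 rose by 0.57 ± 0.13 (limma adjusted p = 0.0232), a call lost without 0 h replicate 2 or either 24 h array. MYH8, the perinatal form, read 4.15 and 4.15 at 0 h, 4.12 and 4.20 at 6 h, 4.18 and 4.26 at 12 h, and 4.57 and 4.63 at 24 h. The 0, 6 and 12 h arrays lay close together and the 24 h arrays above them, a rise of 0.45 ± 0.06 (limma adjusted p = 0.0026). Another MYH8 probe set rose by 0.30 (limma adjusted p = 0.0294 over probe sets). The adult fast forms MYH1 and MYH2 differed at 24 h by -0.12 and 0.13 and the slow form MYH7 by 0.10, none of them called.

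MYL11, the fast regulatory light chain, read 8.59 and 8.48 at 0 h, 8.38 and 8.46 at 6 h, 8.56 and 8.51 at 12 h, and 9.09 and 9.28 at 24 h. The 0 and 12 h arrays overlapped, the 6 h arrays lay just under them and the 24 h arrays above all, giving a rise of 0.65 ± 0.08 at 24 h (limma adjusted p = 0.00187), 1.57-fold. MYL4, the essential light chain of embryonic muscle and atrium, read 10.13 and 10.10 at 0 h, 10.24 and 10.27 at 6 h, 10.41 and 10.41 at 12 h, and 10.57 and 10.77 at 24 h. Its arrays did not overlap between times, and it rose by 0.30 ± 0.07 at 12 h (limma adjusted p = 0.0264) and 0.56 ± 0.07 at 24 h (limma adjusted p = 0.00216). The 12 h call of MYL4 was lost without any single 0 h or 12 h array. The 4 MYL4 probe sets were all called at 24 h, with changes between 0.47 and 0.61. MYL1, the fast essential light chain, read 6.88 and 6.78 at 0 h, 6.66 and 6.76 at 6 h, 6.50 and 6.39 at 12 h, and 6.81 and 6.84 at 24 h. It was lowest in both 12 h arrays, a fall of -0.39 ± 0.07 (limma adjusted p = 0.00861, lost without 0 h replicate 1), and differed by -0.01 at 24 h. MYL6B, the essential light chain of slow muscle and other tissue, differed by 0.13 at 24 h (limma adjusted p = 0.276).

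Of the 5 measured thin filament members, 1 was called higher and 1 lower at 24 h, against 8.59% and 9.15% of all genes. NEB, nebulin, the giant protein along the thin filament, read 10.42 and 10.42 at 0 h, 10.74 and 10.77 at 6 h, 11.04 and 11.06 at 12 h, and 10.97 and 10.84 at 24 h. All hypoxic arrays were above the 0 h arrays, and 12 h was the highest time. NEB rose by 0.33 ± 0.06 at 6 h (limma adjusted p = 0.0301), 0.63 ± 0.06 at 12 h (limma adjusted p = 0.000865) and 0.48 ± 0.06 at 24 h (limma adjusted p = 0.00221). Its dimmer probe set differed by 0.24 at 24 h and was not called (limma adjusted p = 0.304 over probe sets). ACTC1, the cardiac alpha-actin of developing muscle, read 13.84 and 13.81 at 0 h, 13.80 and 13.81 at 6 h, 13.72 and 13.77 at 12 h, and 13.63 and 13.61 at 24 h. The 24 h arrays were below all others, a fall of -0.20 ± 0.05 (limma adjusted p = 0.0345), at a signal near the maximum of the arrays, 14.5. ACTA1, the alpha-actin of adult skeletal muscle, read 4.50 and 4.49 at 0 h, 4.69 and 4.59 at 6 h, 4.27 and 4.14 at 12 h, and 4.36 and 4.24 at 24 h. Both 12 h arrays and both 24 h arrays were below the 0 h arrays, and the gene fell at 12 h by -0.29 ± 0.07 (limma adjusted p = 0.0301) but was not called at 24 h (limma adjusted p = 0.108). The ACTA1 signal was low, at the 12.7 percentile of all genes. A variance prior that follows intensity ended its 12 h call, as did a fit with only the groups compared. The ACTA1 call was lost without either 0 h array or 12 h replicate 2, and the ACTC1 call without any single 0, 6 or 24 h array. TPM2 (0.12) and TPM1 (-0.16, limma adjusted p = 0.0979), tropomyosins, were not called at 24 h.

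**Figure D3:**
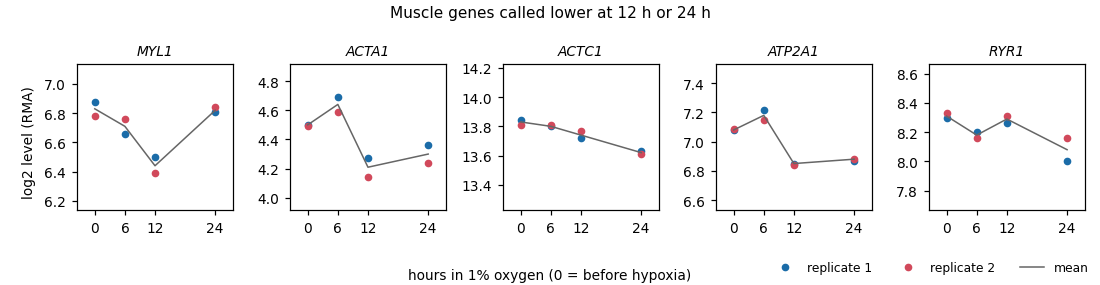
log2 level (RMA) of the 5 muscle genes called lower at 12 h or 24 h, against hours in 1% oxygen, with each array as a point coloured by replicate and a line through the means of 2 arrays. MYL1 is lowest at 12 h, and ACTC1 and RYR1 at 24 h.

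Of the myosin-binding and M-band proteins, 1 of 5 was called at 24 h, against 17.7% of all genes in either direction. MYBPC2, the fast myosin-binding protein C, read 7.64 and 7.64 at 0 h, 7.54 and 7.55 at 6 h, 7.65 and 7.59 at 12 h, and 8.03 and 8.23 at 24 h. The 24 h arrays lay above the rest, a rise of 0.49 ± 0.07 (limma adjusted p = 0.0042). MYBPC1 of slow muscle differed by -0.07, MYBPH by 0.22, and the M-band proteins MYOM1 and MYOM2 by 0.23 and 0.24, none called.

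At the Z-disc and its elastic links, 2 of 8 genes were called higher at 24 h, against 8.59% of all genes, and 0 lower, against 9.15%. CSRP3, the muscle LIM protein of the Z-disc, read 6.49 and 6.40 at 0 h, 6.78 and 6.65 at 6 h, 7.01 and 7.03 at 12 h, and 7.68 and 7.43 at 24 h. No 2 times overlapped, and CSRP3 rose by 0.57 ± 0.09 at 12 h (limma adjusted p = 0.00603) and 1.12 ± 0.09 at 24 h (limma adjusted p = 0.000283), 2.17-fold at 24 h. TTN, titin, the elastic protein from Z-disc to M-band, read 9.94 and 9.94 at 0 h, 10.05 and 10.06 at 6 h, 10.26 and 10.30 at 12 h, and 10.35 and 10.25 at 24 h. The 12 and 24 h arrays overlapped each other and lay above the rest, with rises of 0.34 ± 0.06 at 12 h (limma adjusted p = 0.00748) and 0.35 ± 0.06 at 24 h (limma adjusted p = 0.00558). The 12 h calls were lost without either 0 h array for TTN and without 0 h replicate 2 for CSRP3. DES, the desmin intermediate filament, differed by -0.29 at 24 h and was not called (limma adjusted p = 0.0573). ACTN2, an alpha-actinin, differed by 0.30, ACTN3 by 0.12, TCAP by 0.16, LDB3 by 0.05 and MYOT by 0.03, with no call.

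Calcium handling had 1 of 5 members higher and 2 lower at 24 h, against 8.59% and 9.15% of all genes. CASQ2, calsequestrin, the calcium-binding protein of the store, read 5.41 and 5.46 at 0 h, 5.44 and 5.52 at 6 h, 5.66 and 5.52 at 12 h, and 5.79 and 5.82 at 24 h. Its 24 h arrays were above all others, a rise of 0.37 ± 0.07 (limma adjusted p = 0.00922, lost without 0 h replicate 1). ATP2A1, the fast-muscle calcium pump, read 7.08 and 7.09 at 0 h, 7.22 and 7.15 at 6 h, 6.85 and 6.84 at 12 h, and 6.87 and 6.88 at 24 h. The 12 and 24 h arrays lay below the 0 and 6 h arrays, with falls of -0.23 ± 0.05 at 12 h (limma adjusted p = 0.0223) and -0.21 ± 0.05 at 24 h (limma adjusted p = 0.0344). RYR1, the calcium release channel, read 8.30 and 8.33 at 0 h, 8.20 and 8.16 at 6 h, 8.26 and 8.31 at 12 h, and 8.0 and 8.16 at 24 h. At 24 h both arrays were at or below every other array, a fall of -0.23 ± 0.07 (limma adjusted p = 0.0489). The ATP2A1 call at 12 h was lost without any single 0 h or 12 h array. At 24 h the ATP2A1 call was lost without any single array, and the RYR1 call without any single array other than 24 h replicate 2. Without 24 h replicate 1 the RYR1 change was -0.15. CASQ1 (-0.07) and CACNA1S (-0.07), the voltage sensor, were not called.

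No acetylcholine receptor or membrane gene passed a comparison with 0 h, while 17.7% of all genes did so at 24 h. CHRNA1, the receptor alpha subunit, read 11.50 and 11.54 at 24 h and 11.53 and 11.55 at 0 h, which overlap. CHRNB1 differed by 0.20, CHRND by 0.33 (limma adjusted p = 0.1) and the fetal subunit CHRNG by 0.07. CAV3, muscle caveolin, read 9.89 and 9.99 at 24 h and 9.72 and 9.76 at 0 h, without overlap, at limma adjusted p = 0.0515. Of all genes, 26.6% had both 24 h arrays above both 0 h arrays. SGCA, alpha-sarcoglycan, differed by 0.24 (limma adjusted p = 0.157).

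**Figure D4:**
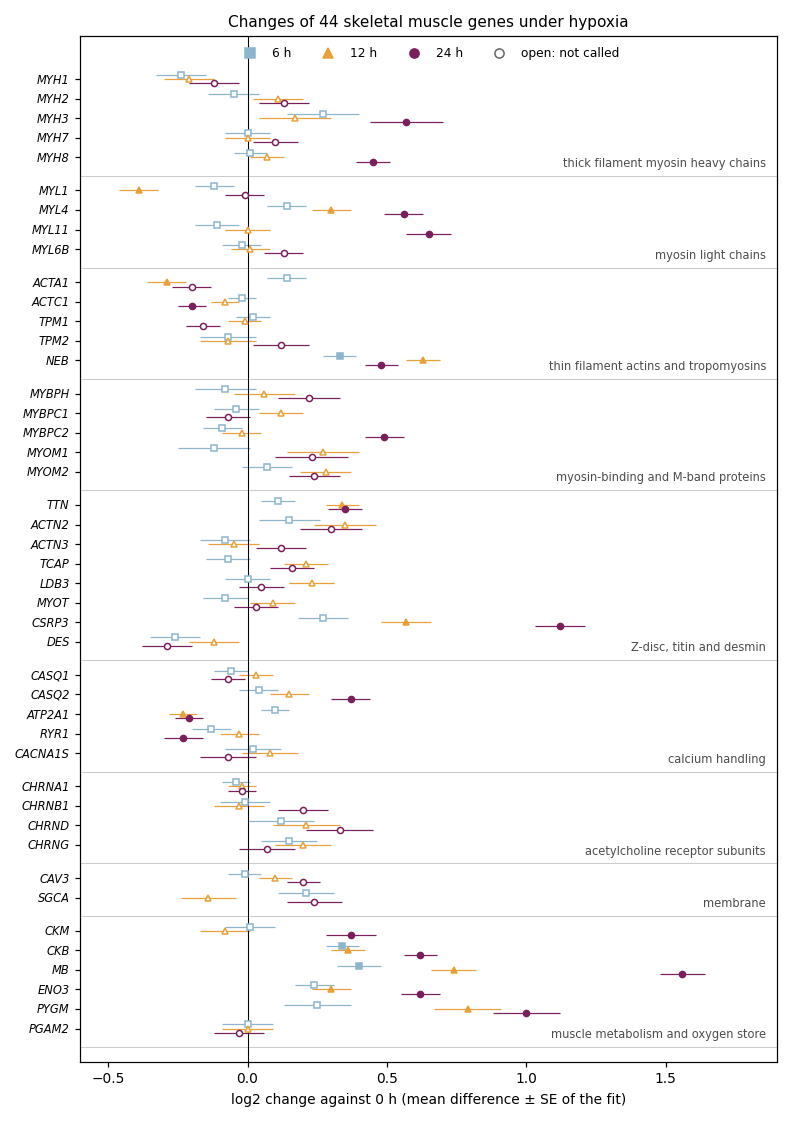
log2 change against 0 h at 6, 12 and 24 h for the 44 measured muscle genes, grouped by role, with the standard error of the fit as bars and open symbols where limma made no call. Most filled 24 h symbols lie right of 0, and 3 lie left of it.

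Between hypoxic times, 24 h against 6 h called 9 members higher, a share of 20.5% against 1.85% of all genes, and 1 lower (ATP2A1), against 0.936%; without any single 0, 6 or 24 h array the count in both directions was 1 to 6. Between 24 h and 12 h, 2 were called higher, MB and MYL11, a share of 4.55% against 0.184%, and both calls were lost without any single array other than 12 h replicate 1. Between 12 h and 6 h, limma called 0 members, against 0.201% of all genes in either direction. For this comparison, 12 of 44 members and 2631 of 11963 genes had an unadjusted limma p under 0.05. The 24 h arrays differed more between replicates, with a median absolute difference over members of 0.13, against 0.04 at 0 h. Over all genes it was 0.10 at 24 h and 0.06 at 0 h. Of the 14 genes higher at 24 h, 10 had 24 h replicate 2 above replicate 1, a count not made over all genes.

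Other muscle lists are given by their counts at 24 h, read against the same shares of all genes, 8.59% higher and 9.15% lower. Of 7 measured troponins, 5 rose at 24 h, with TNNI2 at 1.23 and TNNC1 at 1.17. Of 22 other sarcomere and structure genes, 3 rose and 2 fell, including MYOZ2 at 0.83 and SMPX at 0.75, both Z-disc or sarcomere-associated proteins, and PALLD at -0.36. Of 16 further calcium and excitation genes, 4 rose and 1 fell, with HRC, a calcium-binding protein of the store, at 0.61, ASPH at 0.55, ITPR1, a calcium release channel, at 0.29, and ATP2A2, the slow and cardiac pump, at -0.26. Of 12 dystrophin complex and repair genes, 1 rose (SSPN, 0.56) and 2 fell (CAV2, -0.42, and DYSF, -0.30). Of 15 junction and fusion genes, 4 rose and 3 fell, with NCAM1 at 0.52 and MYOF at -0.76. Of 12 other muscle metabolism genes, 2 rose (FABP3, 0.56, and SLC25A4, 0.37). Of 9 myogenic regulators, 4 rose, with EYA2 at 0.37 and MYOG at 0.31. Of markers of other cell types, 1 of 10 fibroblast, 1 of 7 endothelial, 1 of 6 epithelial and 0 of 5 immune markers passed the test at 24 h by limma, all that passed being higher; the mean level of the fibroblast list was 6.70 at 24 h and 6.62 at 0 h. Smooth muscle markers moved the other way, with 4 of 7 lower at 24 h, TAGLN by -1.10 and ACTA2 by -0.58, and a mean level of 6.01 at 24 h and 6.41 at 0 h; their part in the muscle gene changes was not tested.

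Of the 44 genes, 9 had several probe sets. At 24 h, a dimmer probe set had the opposite sign to the one used for ACTN2 (-0.05 against 0.30), DES (0.04 against -0.29) and CHRNA1 (0.10 against -0.02), none called. For TPM1, the brightest probe set was not called, while other TPM1 probe sets fell at 12 h by -0.27 (limma adjusted p = 0.0309, over probe sets as for the values that follow) and -0.20 (limma adjusted p = 0.0498), and at 24 h by -0.23 (limma adjusted p = 0.0492). A probe set shared by MYH7 and MYH6 differed by 0.28 at 24 h (limma adjusted p = 0.425).

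**Figure D5:**
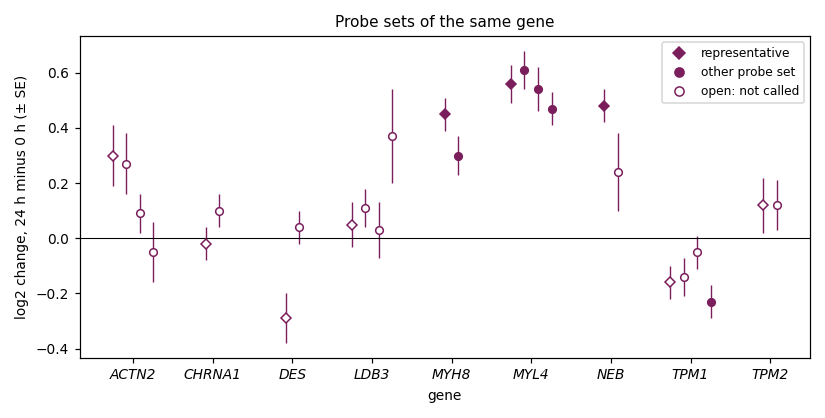
log2 change at 24 h minus 0 h with the standard error of the fit for every probe set of the 9 muscle genes that have several, with diamonds for the one used and open symbols where limma made no call. All 4 MYL4 probe sets are called, between 0.47 and 0.61.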

How the data were processed

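Gene expression was measured on 8 one-colour Affymetrix arrays. The authors deposited log2 levels; RMA is the tool named, per the submitters' processing notes, with no version or software stated there. RMA equalises the arrays' distributions, so each change is a relative one, and no depth applies; the number of arrays limits the precision. Symbols came from a platform annotation dated 2016, in which 19070 of 22277 probe sets had 1 symbol and 1043 several. Each of 11963 genes was represented by its brightest probe set. With limma 3.58.1 (R 4.3.3), a mean per time was estimated from the 8 arrays, with 4 residual degrees of freedom plus 3.68 from the prior. Tests were two-sided, with Benjamini-Hochberg adjustment over all genes and a call at an adjusted p under 0.05. The fit was tested on simulated data with independent noise of equal spread at all times. That simulation does not cover the larger replicate spread seen at 24 h.

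The members and the other lists were chosen with earlier results of these data known. Every measured member is named, those called in any comparison with each array's value; of other lists, at most 4 called genes with the largest 24 h change. Alternatives were a variance prior that follows intensity, further quantile normalization, centring on array medians, filters on the dimmest 25% and 50% of genes, the mean of a gene's probe sets, every probe set alone, only the groups compared, the replicate number as a block, and leaving out each array. A fit without both 12 h arrays was added after seeing the data.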

Additional observations from a re-analysis of the deposited data

Results flagged for a closer look

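Several members differed between hypoxic times, by limma's test of the difference itself (Benjamini-Hochberg adjusted over all genes). At 24 h against 12 h, MYL11 was higher by 0.65 (limma adjusted p = 0.038) and MB by 0.82 (limma adjusted p = 0.025). At 24 h against 6 h, MYH8 was higher by 0.45 (0.0146), MYL4 by 0.41 (0.0307), MYL11 by 0.76 (0.00543), MYBPC2 by 0.58 (0.0116), CSRP3 by 0.85 (0.00601), CASQ2 by 0.33 (0.05 after rounding up, called), MB by 1.16 (0.00108), ENO3 by 0.38 (0.0341) and PYGM by 0.75 (0.0233), with limma adjusted p in parentheses. ATP2A1 changed by -0.31 at 24 h against 6 h (limma adjusted p = 0.0318). Every one of these calls but that of MB at 24 h against 6 h was lost without at least 1 array.

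Probe sets of TPM1 other than the one used differed from it in their calls: -0.27 (limma adjusted p = 0.0309) and -0.20 (limma adjusted p = 0.0498) at 12 h, and -0.23 (limma adjusted p = 0.0492) at 24 h.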

How the results depend on the processing

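Over 43 called changes of single genes, 598 of 740 alternatives kept the call, 142 lost it and 0 reversed sign. The reported counts in either direction were 3 members at 6 h, 11 at 12 h, 17 at 24 h, 0 at 12 h against 6 h, 2 at 24 h against 12 h, 10 at 24 h against 6 h and 16 over all times. The calls kept under every alternative that tested the gene were NEB, MB and PYGM at 12 h, MYH8, MYL4, MYL11, NEB, MYBPC2, TTN, CSRP3, CKB, MB, ENO3 and PYGM at 24 h, and MB at 24 h against 6 h. Of these genes, MYH8 was removed by both filters on dim genes, and CSRP3 and PYGM by the 50% filter, so they were not tested there. At 24 h, the call was lost in 8 of 18 alternatives for ACTC1, 12 of 17 for ATP2A1 and 12 of 18 for RYR1. The counts that follow are given without the share of all genes called under the same setting, which also varied. They therefore do not compare the members with all genes. A variance prior that follows intensity gave 5 members at 6 h, 6 at 12 h against 6 h and 9 at 24 h against 12 h. Leaving out the dimmest 25% of genes removed 14 members before testing, and leaving out the dimmest 50% removed 26. Without the dimmest 25% of genes, 12 h against 6 h gave 2 and 24 h against 12 h gave 5. Without the dimmest 50%, 6 h gave 5, 12 h gave 6, 12 h against 6 h gave 3 and 24 h against 12 h gave 6. The 50% filter removed MYL1, ACTA1, CSRP3, ATP2A1 and PYGM, all called at 12 h. The lower 12 h count reflects this removal, and no 12 h call was lost among the members still tested. Further quantile normalization gave 1 at 12 h against 6 h. With only the groups compared, 24 h against 12 h gave 0 and 24 h against 6 h gave 6. The replicate numbers did not pair the arrays, with correlations of deviations from -0.11 to 0.09; with the replicate number as a replicate block, 6 h gave 1, 24 h against 12 h gave 0 and 24 h against 6 h gave 6, while 12 h gave 11 and 24 h gave 14. Leaving out 1 array at a time, with a lone array assumed to vary like the other groups, gave 0 to 3 at 6 h, 4 to 12 at 12 h, 12 to 16 at 24 h, 0 to 4 at 12 h against 6 h, 0 to 4 at 24 h against 12 h, 1 to 12 at 24 h against 6 h, and 9 to 20 over all times together. Without 0 h replicate 1, 12 h gave 4 higher and 0 lower; without 0 h replicate 2, it gave 3 higher and 1 lower. Without either of them, 24 h gave 12 higher and 0 lower. Without both 12 h arrays, an alternative chosen after seeing the data, the counts were 3 at 6 h, 16 at 24 h and 12 at 24 h against 6 h. The cause of these changes was not tested.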

Other observations

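Paralogs of the muscle genes that are used in other tissues moved in mixed directions, with 4 of 17 higher and 7 lower at 24 h. Of all genes, 8.59% were higher and 9.15% lower at that time. The glycolytic ENO2 (1.18), ENO1 (0.75) and PGAM1 (0.70) were higher at 24 h, while TPM4 (-0.47), ACTB (-0.38), the nonmuscle myosin heavy chain MYH9 (-0.35) and PYGB, the brain glycogen phosphorylase (-0.31), were lower, each called by limma. MYH10, another nonmuscle heavy chain, rose by 0.32. ACTB, MYH9, PYGB and MYH10 were picked after their values were seen, as counterparts of muscle genes described above. Cardiac markers rose at 24 h in 3 of 9 cases, against the same 8.59% of all genes, with NPPB at 0.69. TNNI3 and MYL2, which also rose, were already counted among the troponins and the other sarcomere genes.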
